A study of Mus musculus with 52 samples.

Results

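Matrix metalloproteinases (MMPs), ADAMTS proteases, the related ADAMTS-like proteins and the tissue inhibitors of metalloproteinases (TIMPs) were followed as 1 group of genes. Members were the protein-coding genes whose symbols begin with Mmp, Adamts or Adamtsl and a number, together with Timp1 to Timp4. The rule found 48 of the 27525 genes in the table, namely 20 MMPs, 19 ADAMTS proteases, 5 ADAMTS-like proteins and 4 TIMPs.

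MMPs are zinc-dependent enzymes that are made as inactive precursors and cleave collagens, laminins, elastin and many cell-surface and signaling proteins once a prodomain is removed. ADAMTS enzymes share the zinc-binding catalytic core and carry thrombospondin repeats, and they mainly trim proteoglycans, process procollagens or act on microfibril proteins, while ADAMTS-like proteins keep the repeats but lack the protease. TIMPs bind the active site of these enzymes and block it, and TIMP2 also takes part in the activation of proMMP2 by MMP14 at the cell surface. In tumors many of these genes are known to be transcribed by fibroblasts and leukocytes as well as by tumor cells.

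Poly(A) RNA was sequenced from whole subcutaneous KPC tumors, which were grown in syngeneic male C57BL/6NHsd mice of 8 to 10 weeks from KxPxCx cells, a pancreatic tumor line from Pdx1-Cre mice with a heterozygous mutant Trp53 allele behind a lox-stop-lox cassette. Each of the 4 groups held 8 tumors, 1 library per tumor, resected 14 days after the start of treatment. Untreated tumors were compared with tumors given ADU-S100, a STING agonist injected once into the tumor at 2 µg, with tumors of mice given the agonistic anti-LTβR antibody 4H8 intraperitoneally, 4 times at 100 µg each, and with tumors that received both (combination). All tumors, controls included, came from this 1 cell line, so differences between lines were not sampled. The 32 libraries held 12762453 to 15591986 whole reads, recovered from the step size of the values, with a median of 14932388.

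The tumors were not uniform in tissue content. Summed transcripts of 6 skeletal muscle markers fell into separate classes of libraries in every group, at 5616 to 14660.0 normalized counts in 12 libraries and 59435 to 350116 in the other 20, and the low class held 5 untreated, 2 ADU-S100, 2 anti-LTβR and 3 combination tumors. Of 7 epithelial tumor markers, 4 were lower in combination tumors and none was higher, with sums (lowest, median and highest) of 16176, 20459 and 29309 normalized counts in untreated and 6897, 10749.6 and 14939 in combination tumors. Of 10 fibroblast markers 9 were higher and none was lower, with sums of 72428, 89875 and 115447 against 128771, 266523 and 459892, which did not overlap. Markers were also higher for 8 of 8 endothelial, 6 of 6 leukocyte, 5 of 8 macrophage, 4 of 5 mural and 1 of 8 neutrophil genes, and among 5 tested mast cell genes 4 were lower and 1 was higher. None of the 6 skeletal muscle, 5 adipocyte and 5 keratinocyte markers was called. No marker of these lists was at 0 in every library, and only the keratinocyte gene Krt15 was at 0 in any. The part of these cell types in the results below was not tested. In whole tumors, a change in the number of cells of a type and a change in RNA per cell cannot be told apart.

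In the following, levels are normalized counts, 3 values in a row are the lowest, median and highest of 8 tumors, and a log2 fold change is a difference of group means of log2(normalized counts + 1) with its standard error (SE) from limma. A gene was called at a Benjamini-Hochberg adjusted p below 0.05 over all genes tested. Positions are GRCm38 coordinates from GENCODE M21.

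The combination carried most of the differences within the group. Against untreated tumors, 41 of the 48 members passed the filter on low values and 28 were called, 20 higher and 8 lower. The higher calls made up 48.8% of the members tested, against a background of 19.6% of all 16909 genes tested, and the lower calls 19.5% against a background of 23.6%. Of the 20 higher members 8 rose at least 2-fold, and no lower member fell 2-fold. Both higher counts include Adamts17, which passed the filter only through the combination. The median log2 fold change was 0.54 over the members tested and -0.02 over all genes. The ranges of combination and untreated tumors did not overlap for 7 higher members (Mmp14, Mmp19, Mmp23, Mmp27, Adamts9, Adamts10 and Adamts15) and for 3 lower ones (Timp1, Timp3 and Mmp28), while the background was 4.64% of all genes that did not overlap in the higher and 6.04% in the lower direction. In this comparison, sums of the fibroblast, macrophage, mural, endothelial and leukocyte markers moved with the higher members, and those of the epithelial tumor and mast cell markers with the lower ones. The leukocyte sum was 1702, 2376 and 2757 normalized counts in untreated and 2838, 3736 and 4587 in combination tumors, and the mast cell sum 578, 737 and 1361 and 244, 298 and 539.9. After anti-LTβR alone the mast cell sum was also low, at 168, 288 and 329. There Timp1, Mmp28 and Adamtsl1 were called lower, while Timp3, Adamts1, Mmp24, Adamtsl3 and Adamtsl4 were not. The part of these markers in the differences was not tested.

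**Figure D1:**
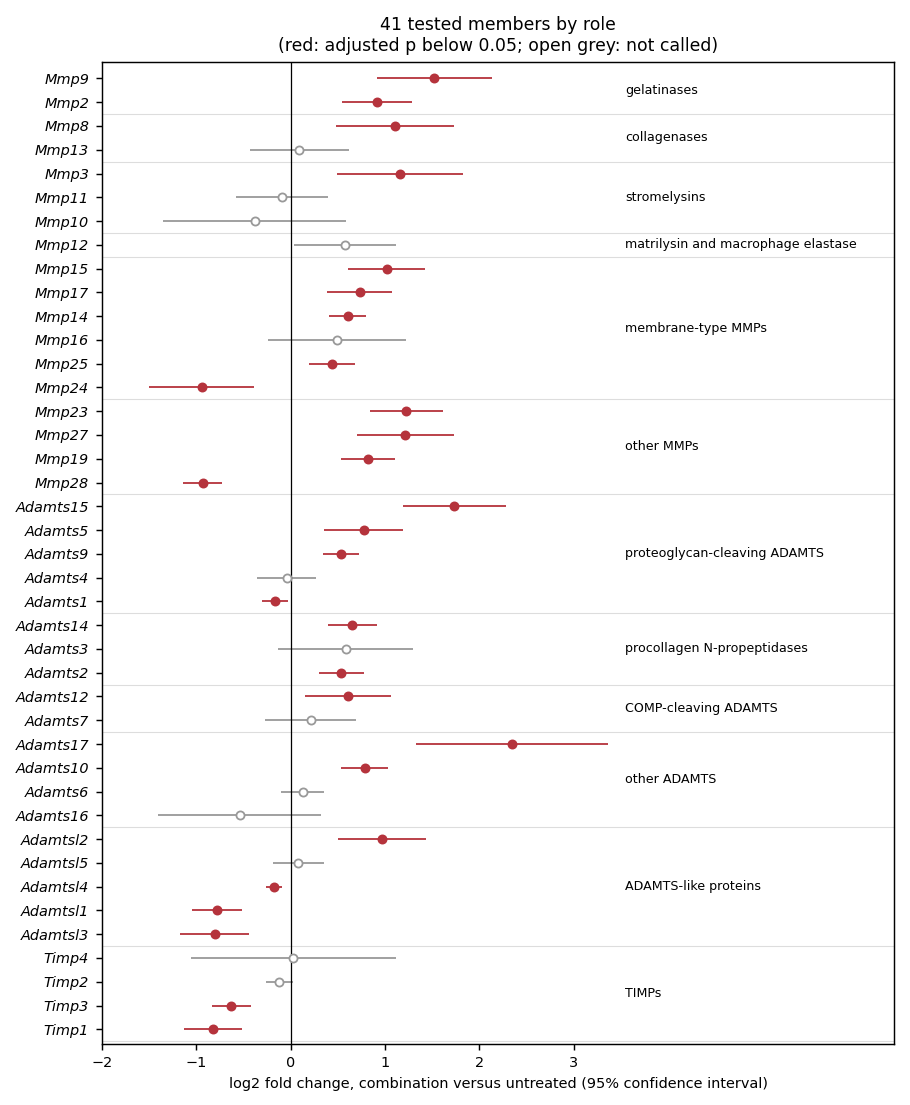
Log2 fold change of the 41 tested members in combination versus untreated tumors, grouped by role, with 95% confidence intervals from limma (8 tumors per group); red points passed an adjusted p of 0.05 and open grey points did not. Members lie mostly to the right of 0, with 20 called higher, while Timp1 and Timp3 lie to the left at -0.82 and -0.63.

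Per kilobase of exon, Timp1, Timp2 and Timp3 were more abundant than the proteases in untreated tumors, while Timp4 was scarce at 0.649, 2.19 and 6.11 normalized counts per kilobase. Timp1 stood at 6827, 8501 and 15931 normalized counts per kilobase, and its range did not overlap that of Timp3 at 3726, 4211 and 5271. Timp3 and Timp2 (3434, 3679 and 3838) overlapped. Among the proteases Mmp14 had the highest median, at 1212, 1405 and 1606 per kilobase, and its range overlapped those of Mmp2 at 899, 1021 and 1396 and Mmp3 at 559, 855 and 1925. In combination tumors Timp1, Timp2 and Timp3 still had the highest medians, and the ranges of Timp2 and Timp3 overlapped that of Mmp2. Timp3 then stood at 2199, 2926 and 3149 per kilobase, against 1218, 2079 and 3510.2 for Mmp2 and 1744, 2054 and 2948 for Mmp14, so these ranges overlapped. Mmp3 reached 952, 1909 and 4729.7 per kilobase, with a median close to those of Mmp2 and Mmp14.

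Both gelatinases, which cleave denatured and basement membrane collagen, rose with the combination, against a background of 19.6% of genes higher. Mmp2 (gelatinase A, chr8:92827291-92853420, plus strand) held 3029.6, 3442 and 4706 normalized counts in untreated and 4107, 7009.5 and 11833 in combination tumors. All but 1 of the 8 combination tumors lay above every untreated tumor. The log2 fold change was 0.92 ± 0.18 SE, adjusted p = 0.000619. Mmp9 (gelatinase B, chr2:164940780-164955850, plus strand), a product of macrophages and neutrophils among others, held 335, 1028 and 1505 in untreated and 1493, 2422 and 4865 in combination tumors. Here too only 1 combination tumor, the lowest, lay inside the untreated range. Its log2 fold change was 1.52 ± 0.29 SE, adjusted p = 0.000564. Neither gene passed the test after 1 agent: Mmp2 gave -0.36 after ADU-S100 and -0.35 after anti-LTβR on the log2 scale, and Mmp9 gave -0.42 and 0.06.

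**Figure D2:**
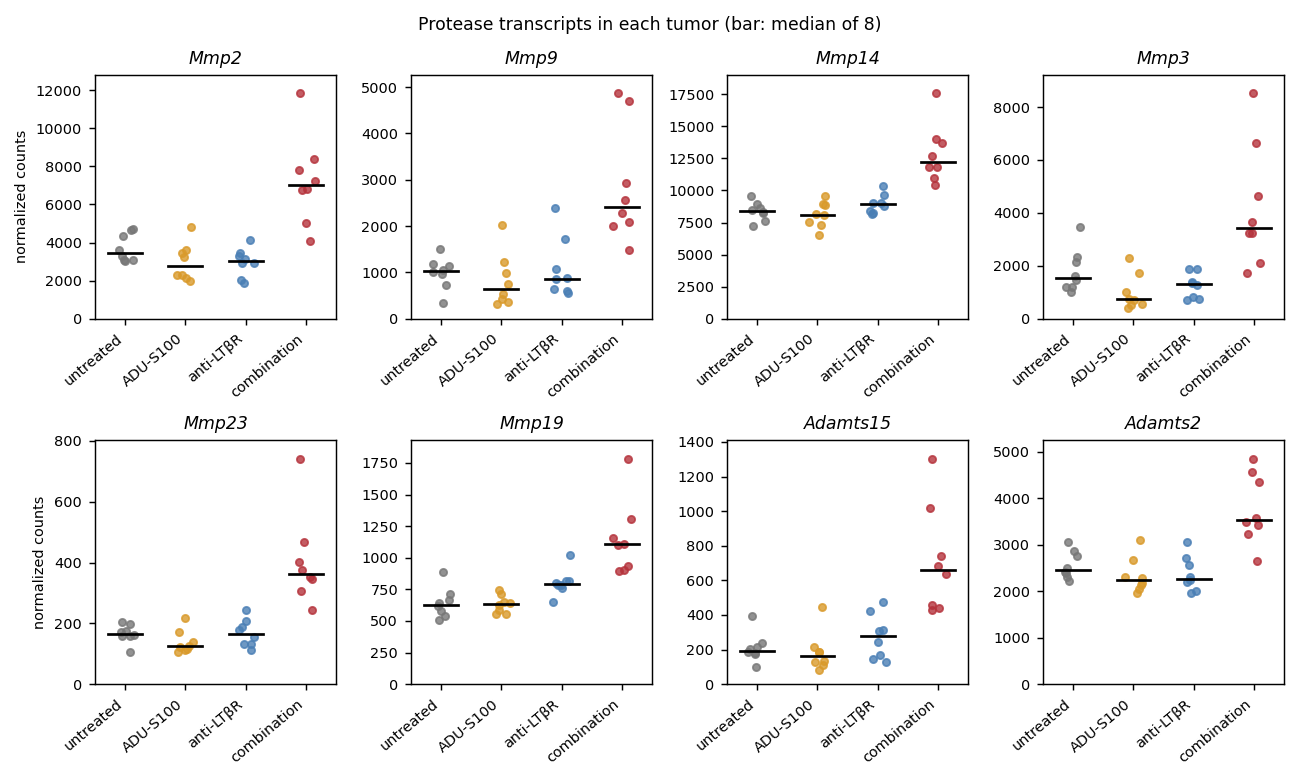
Normalized counts of 8 protease genes in each of the 32 tumors, by treatment group, on linear axes from 0; points are tumors and bars are medians of 8. For Mmp14, Mmp19, Mmp23 and Adamts15 all 8 combination tumors lie above all 8 untreated tumors.

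Among the 6 membrane-type MMPs, which are anchored in the plasma membrane, 4 rose, 1 fell and Mmp16 was not called. These were 66.7% higher and 16.7% lower, against backgrounds of 19.6% of genes higher and 23.6% lower. Mmp14 (MT1-MMP, chr14:54431612-54445364, plus strand), the cell-surface collagenase that activates proMMP2, held 7225, 8376 and 9570.5 normalized counts in untreated and 10392, 12240.2 and 17571 in combination tumors, and the groups did not overlap. Its log2 fold change was 0.61 ± 0.09 SE, adjusted p = 0.000115, a 1.52-fold rise. Mmp15 (MT2-MMP, chr8:95352268-95375080, plus strand) rose from 42.1, 60.2 and 89.9 to 87.8, 117 and 240.3. For Mmp15 the log2 fold change was 1.02 ± 0.19 SE, adjusted p = 0.000578, and 7 of 8 combination tumors lay above every untreated one.

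Of the members held by a lipid anchor, Mmp17 (MT4-MMP, chr5:129584169-129611099, plus strand) stood at 52.9, 71.6 and 102 in untreated, 88.4, 128 and 165 in anti-LTβR and 80.5, 119.7 and 187 in combination tumors. Its levels with anti-LTβR alone and with both agents overlapped. The log2 fold change against untreated tumors was 0.70 ± 0.16 SE, adjusted p = 0.0108 for anti-LTβR and 0.73 ± 0.16 SE, adjusted p = 0.00187 for the combination, and combination minus anti-LTβR was 0.03 (95% confidence interval -0.31 to 0.37). Mmp25 (MT6-MMP, chr17:23628311-23645277, minus strand), a leukocyte enzyme, moved from 91.2, 131 and 159 to 141, 173 and 216. Its log2 fold change was 0.44 ± 0.12 SE, adjusted p = 0.00551. Mmp24 (MT5-MMP), best known from the nervous system, had a log2 fold change of -0.94 and was the only membrane-type member to fall; its exons share bases with a gene on the opposite strand.

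On chromosome 9, 8 MMP genes lie within 309 kilobases (chr9:7272514-7581885), in the order Mmp13, Mmp12, Mmp1b, Mmp3, Mmp1a, Mmp10, Mmp8 and Mmp27. The RefSeq promoter windows (GRCm38.p6, 250 bases before to 50 after a start) were searched for TGAGTCA, whose reverse complement is TGACTCA, the letters recognized by the AP-1 factors Fos and Jun, and for TATAAA. Windows were at hand for 33 of the 48 members. The AP-1 letters, on either strand, occurred in 6 members and all 6 were genes of this cluster; 5.2% of the 32851 windows of all genes hold them. The last 110 bases before the start are printed for those 6, in lower case with these motifs in capitals, since these letters set the 6 genes apart from the other members with a window.
Mmp13, chr9:7272404-7272513, plus strand: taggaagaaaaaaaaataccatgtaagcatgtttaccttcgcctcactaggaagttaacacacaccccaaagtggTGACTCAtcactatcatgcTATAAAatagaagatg
Mmp12 (the second of its starts), chr9:7347264-7347373, plus strand: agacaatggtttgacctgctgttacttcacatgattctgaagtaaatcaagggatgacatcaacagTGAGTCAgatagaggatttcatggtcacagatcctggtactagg
Mmp1b, chr9:7388027-7388136, minus strand: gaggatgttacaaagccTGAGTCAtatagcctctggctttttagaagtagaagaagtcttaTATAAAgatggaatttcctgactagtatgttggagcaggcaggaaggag
Mmp3, chr9:7445712-7445821, plus strand: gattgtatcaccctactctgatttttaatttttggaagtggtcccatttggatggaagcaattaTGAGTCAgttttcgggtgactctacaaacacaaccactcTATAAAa
Mmp1a, chr9:7464031-7464140, plus strand: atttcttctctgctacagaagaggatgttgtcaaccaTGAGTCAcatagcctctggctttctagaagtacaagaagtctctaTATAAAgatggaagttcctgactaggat
Mmp10, chr9:7502232-7502341, plus strand: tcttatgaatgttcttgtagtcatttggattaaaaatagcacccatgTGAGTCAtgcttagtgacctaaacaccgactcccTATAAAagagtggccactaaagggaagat

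In these 6 stretches the AP-1 letters began 35 to 93 bases before the start, and 5 of the 6 also held TATAAA on the printed strand, as did 0.134% of all windows for both motifs in the same 110 bases. The stretch of Mmp12 held no TATAAA. The windows of Mmp8 and Mmp27, at the other end of the cluster, held no AP-1 letters, which says only that these letters are not in those 300 bases. A match describes letters and not a bound site.

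Of the 6 cluster genes that were tested 3 rose, against a background of 19.6% of genes; Mmp1a and Mmp1b failed the filter. The 3 were Mmp3 with these letters and Mmp8 and Mmp27 without them. Mmp3 (stromelysin 1, chr9:7445822-7455975, plus strand), which cleaves proteoglycans and activates other proMMPs, held 1006, 1540.0 and 3467 normalized counts in untreated and 1714, 3439 and 8518 in combination tumors. All 8 combination tumors lay above the untreated median and 4 lay above every untreated tumor. Its log2 fold change was 1.16 ± 0.32 SE, adjusted p = 0.00756. Mmp8 (neutrophil collagenase, chr9:7558456-7568485, plus strand) stood at 60.2, 112 and 158 in untreated and 114, 197 and 522 in combination tumors. The fit gave it 1.10 ± 0.30 SE, adjusted p = 0.00651 on the log2 scale. Of the 8 neutrophil markers only Csf3r was called beside it. Mmp27 (chr9:7571396-7581885, plus strand), a little-studied member, was low but separated the groups, at 10.02, 18.5 and 25.4 in untreated and 26.0, 45.4 and 72.5 in combination tumors. In the fit its log2 fold change was 1.22 ± 0.24 SE, adjusted p = 0.000858.

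Mmp13 (collagenase 3), Mmp12 (macrophage elastase) and Mmp10 (stromelysin 2) were not called against untreated tumors. Their log2 fold changes were 0.09 ± 0.25 SE, adjusted p = 0.791 for Mmp13, 0.57 ± 0.26 SE, adjusted p = 0.0805 for Mmp12 and -0.38 ± 0.46 SE, adjusted p = 0.522 for Mmp10. Mmp13 was high throughout, at 1257, 2126 and 3018 in untreated and 1171, 2544 and 4357 in combination tumors, with overlapping groups. Mmp1a and Mmp1b were barely detected, at 0 to 5.77 and 0 to 7.69 normalized counts over the 32 tumors. Mmp12 and Mmp1b are transcribed from opposite strands and share 157 exon bases, so reads there cannot be told apart unless counting used strand. The methods name a stranded library protocol, but whether the counting used strand is not stated.

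**Figure D3:**
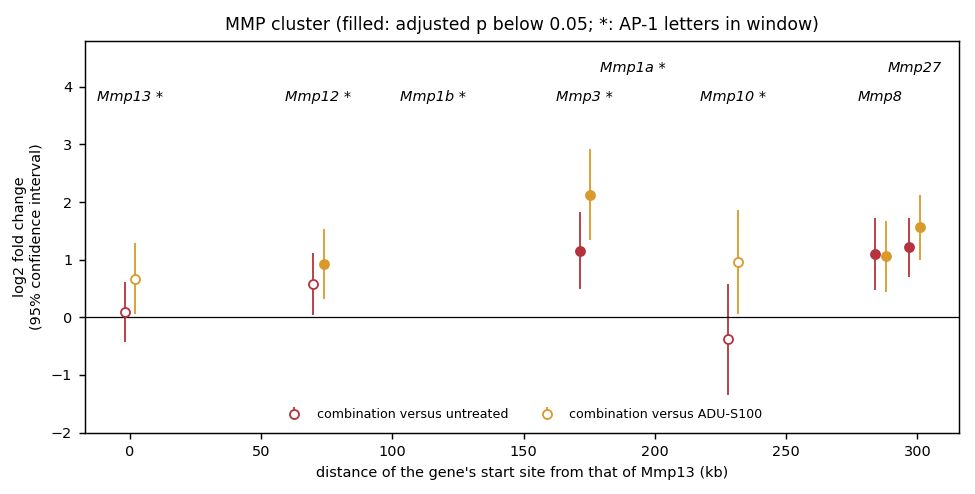
Log2 fold changes with 95% confidence intervals (limma, 8 tumors per group) of the chromosome 9 MMP genes against the distance of their start sites from that of Mmp13, for combination versus untreated (red) and combination versus ADU-S100 (yellow); filled points passed an adjusted p of 0.05, stars mark genes with the AP-1 letters in a promoter window, and Mmp1a and Mmp1b were too low to be tested. Mmp3, Mmp8 and Mmp27 are filled in both comparisons, Mmp12 in the second alone, and Mmp13 and Mmp10 in neither.

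Of the remaining 4 MMPs, Mmp19 and Mmp23 rose, Mmp28 fell and Mmp11 was not called, against backgrounds of 19.6% of genes higher and 23.6% lower. Mmp23 (chr4:155650655-155653384, minus strand), a small transmembrane member without the hemopexin domain, held 105, 166 and 206 normalized counts in untreated and 245, 363 and 742 in combination tumors. The groups did not overlap, and the log2 fold change was 1.22 ± 0.18 SE, adjusted p = 9.32e-05. Mmp19 (chr10:128790910-128800824, plus strand), which cleaves basement membrane proteins, stood at 505, 627 and 891 in untreated, 649.9, 792 and 1019.8 in anti-LTβR and 897, 1108 and 1784 in combination tumors. The log2 fold change against untreated was 0.82 ± 0.14 SE, adjusted p = 0.000221 for the combination. For anti-LTβR it was 0.33 ± 0.10 SE, adjusted p = 0.0404, a call lost without any 1 of 11 tumors, with the skeletal muscle class or marker level in the fit, and with libraries above 14000000 reads alone. The exons of Mmp19 overlap Tmem198b and a predicted gene on the opposite strand.

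Mmp28 (epilysin, chr11:83440768-83463071, minus strand), an enzyme of epithelia and keratinocytes, had the smallest adjusted p of the 41 members. It held 793, 1028 and 1108 normalized counts in untreated, 801, 1042 and 1098 in ADU-S100, 591, 751 and 911 in anti-LTβR and 391, 524 and 689 in combination tumors. Every combination tumor lay below every untreated one, and 5 of 8 anti-LTβR tumors did so. In the fits Mmp28 had a log2 fold change of -0.93 ± 0.10 SE, adjusted p = 9.27e-06 for the combination and -0.40 ± 0.08 SE, adjusted p = 0.00786 for anti-LTβR. The epithelial tumor markers, lower for 4 of 7 genes in both of these comparisons, moved with it; their part was not tested. Mmp28 shares 466 exon bases with 1700020L24Rik on the opposite strand.

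The ADAMTS proteases that cleave aggrecan and versican moved unequally. Adamts15 (chr9:30899155-30922452, minus strand) held 99.4, 194 and 391 normalized counts in untreated and 427, 662 and 1303 in combination tumors. The groups did not overlap, and the log2 fold change of 1.74 ± 0.26 SE, adjusted p = 9.55e-05 corresponded to a 3.33-fold rise. Adamts5 (chr16:85856173-85901828, minus strand), a main aggrecanase of cartilage, stood at 125, 289 and 344 in untreated and 328, 412 and 558 in combination tumors, with a log2 fold change of 0.77 ± 0.20 SE, adjusted p = 0.00496. Adamts9 (chr6:92772699-92943492, minus strand), a versicanase, stood at 62.2, 81.0 and 90.0 in untreated and 98.5, 116 and 139 in combination tumors without overlap, with a log2 fold change of 0.54 ± 0.09 SE, adjusted p = 0.000228. Its exons share bases with A730049H05Rik and Gm15737 on the opposite strand. Adamts4, the other classic aggrecanase, was not called (-0.04 ± 0.15 SE, adjusted p = 0.846). Adamts1 fell by 0.17 on the log2 scale, at an adjusted p of 0.0475 that rose above 0.05 without any 1 of untreated tumors 2 to 6 or combination tumors 2, 3, 5, 6 and 7, to at most 0.0946. On the recovered reads Adamts1 was called neither by edgeR (adjusted p 0.0605 to 0.0858 over 3 scalings) nor by DESeq2 (0.0527). Versican itself (Vcan), their shared substrate, gave -0.20 ± 0.09 and was not called.

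The enzymes that remove the N-propeptide of fibrillar procollagens were higher for 2 of 3 members, against a background of 19.6% of genes higher. Adamts2 (chr11:50602084-50807573, plus strand) held 2218, 2453 and 3059 normalized counts in untreated and 2645, 3535 and 4855 in combination tumors. Adamts14 (chr10:61197112-61273438, minus strand) held 219.5, 264 and 391 in untreated and 365, 406 and 581 in combination tumors. Most combination tumors, 7 of 8 for Adamts2 and 6 of 8 for Adamts14, lay above all untreated tumors. The log2 fold changes were 0.54 ± 0.11 SE, adjusted p = 0.00105 for Adamts2 and 0.66 ± 0.12 SE, adjusted p = 0.000505 for Adamts14. Adamts3 was near the detection limit, at 3.01 to 23.8 over the 32 tumors, and was not called. Bmp1, which removes the C-propeptide of the same procollagens, and its enhancer Pcolce rose by 0.48 and 0.50, and the substrate gene Col1a1 by 1.54, on the log2 scale.

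Among the other ADAMTS enzymes, Adamts17 and Adamts10, both linked to fibrillin microfibrils, rose. Adamts17 (chr7:66839735-67153171, plus strand) went from a low level of 1.02, 7.63 and 18.2 to 7.80, 39.5 and 71.5 normalized counts, a log2 fold change of 2.35. It failed the filter where the combination was not compared, so it was tested only through the group where it was high, and its fold change is given as a description. Adamts10 (chr17:33524204-33553782, plus strand) moved from 334, 419 and 509 to 522, 708 and 1024 with no overlap, a log2 fold change of 0.78 ± 0.12 SE, adjusted p = 9.95e-05. Adamts12 (chr15:11064790-11349231, plus strand), which cleaves cartilage oligomeric matrix protein, held 325, 378 and 622 in untreated, 151, 279 and 575 in ADU-S100, 163, 287 and 523 in anti-LTβR and 312, 671 and 998 in combination tumors. Its lowest combination tumor lay below every untreated tumor and 5 lay above all of them. The log2 fold change was 0.61 ± 0.22 SE, adjusted p = 0.0305, and that p rose above 0.05 without any 1 of untreated tumors 2 to 5 or combination tumors 1, 5 and 8, to at most 0.0615. Adamts7, with the same substrate, was not called (0.21 ± 0.23 SE, adjusted p = 0.466).

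Of the 5 ADAMTS-like proteins, which have no protease activity, 3 fell and 1 rose, against backgrounds of 23.6% of genes lower and 19.6% higher. Adamtsl3 (chr7:82335694-82614450, plus strand) fell from 1067, 1828 and 2065 to 529.6, 1091 and 1243 normalized counts, and Adamtsl1 (chr4:85514172-86428385, plus strand) from 582, 750.4 and 1105 to 384, 423 and 632. All 8 combination tumors lay below the untreated median for both genes. Their log2 fold changes were -0.80 ± 0.17 SE, adjusted p = 0.00145 and -0.78 ± 0.13 SE, adjusted p = 0.000176. Adamtsl4 (chr3:95676201-95687917, minus strand), a fibrillin-binding protein, fell by less, from 1114, 1160.2 and 1240.5 to 971, 1010.4 and 1115, a log2 fold change of -0.18 ± 0.04 SE, adjusted p = 0.00242. Adamtsl2 (chr2:27079379-27108981, plus strand), another microfibril-associated protein, went the other way, from 16.3, 24.9 and 38.2 to 27.3, 50.6 and 74.7, a log2 fold change of 0.97 ± 0.22 SE, adjusted p = 0.0021. Here 7 of 8 combination tumors lay above all untreated tumors.

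None of the 4 TIMPs was called higher and 2 were called lower, against backgrounds of 19.6% of genes higher and 23.6% lower. With only 4 genes, the absence of higher calls is not read as a trait of the TIMPs. Timp1 (chrX:20870166-20874735, plus strand), the TIMP most readily induced by inflammatory signals, held 6063, 7549 and 14146 normalized counts in untreated, 5338, 6484 and 9127 in ADU-S100, 5116, 5892 and 6805 in anti-LTβR and 3854, 4687 and 5666 in combination tumors. All 8 combination tumors were lower than all 8 untreated ones. On the log2 scale Timp1 differed by -0.82 ± 0.15 SE, adjusted p = 0.000353 for the combination and -0.48 ± 0.14 SE, adjusted p = 0.0303 for anti-LTβR, and the combination was also lower than anti-LTβR alone (-0.34 ± 0.08 SE, adjusted p = 0.00582).

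Timp3 (chr10:86300372-86349506, plus strand), which is bound to the matrix and also inhibits ADAMTS enzymes, held 30346, 34297 and 42929 normalized counts in untreated, 27389, 39833 and 45801 in ADU-S100, 23372, 30526 and 45114 in anti-LTβR and 17907, 23826 and 25646 in combination tumors. Again the combination and untreated groups did not overlap. Its log2 fold change was -0.63 ± 0.10 SE, adjusted p = 0.00013. Timp3 shares 1733 exon bases with Syn3 on the opposite strand, and reads there cannot be told apart unless counting used strand.

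Timp2 (chr11:118301069-118355740, minus strand) overlapped between all other groups and the combination, at 13378, 14334 and 14952 in untreated, 10817, 12492 and 13228 in anti-LTβR and 11508, 13016 and 16460.3 in combination tumors. All 8 anti-LTβR tumors lay below all 8 untreated ones, with a log2 fold change of -0.22 ± 0.05 SE, adjusted p = 0.00949. For the combination the value was -0.12 ± 0.07 SE, adjusted p = 0.171; without combination tumor 5, the highest, it was -0.17 (adjusted p = 0.0258). Timp4 (chr6:115241892-115252205, minus strand) was low in all groups, at 2.88 to 46.9 over the 32 tumors, and its log2 fold change was 0.03 ± 0.52 SE, adjusted p = 0.969.

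**Figure D4:**
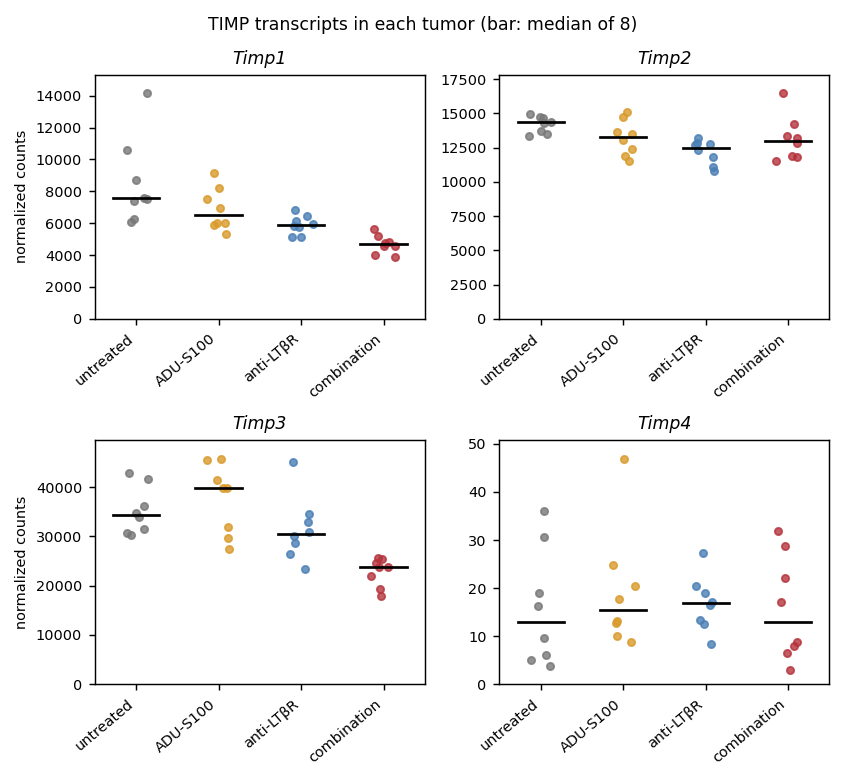
Normalized counts of the 4 TIMP genes in each of the 32 tumors, by treatment group, on linear axes from 0; points are tumors and bars are medians of 8. Combination tumors lie below all untreated tumors for Timp1 and Timp3, overlap them for Timp2 and Timp4, and for Timp2 the anti-LTβR tumors lie below all untreated tumors.

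After ADU-S100 alone, none of the 39 members tested was called, against a background of 0% of 16613 genes in either direction. At an unadjusted p below 0.05, limma gave 9 members and 2408 genes; edgeR and DESeq2 on the recovered reads also called 0 members, with 1 gene called by edgeR and 39 by DESeq2 over all genes. The lowest fitted differences were those of 2 stromelysins: Mmp10 (19.6, 34.2 and 122 against 37.7, 94.1 and 262 in untreated tumors) had a log2 fold change of -1.34 ± 0.39 SE, adjusted p = 0.276, and Mmp3 (417, 737 and 2312) of -0.97 ± 0.34 SE, adjusted p = 0.285.

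After anti-LTβR alone, 38 members were tested and 7 were called. Mmp17 and Mmp19 rose, 5.26% of members tested against a background of 7.21% of 16691 genes. Mmp10, Timp1, Timp2, Adamtsl1 and Mmp28 fell, 13.2% against a background of 8.10%. In the same comparison 4 of 5 mast cell markers tested and 4 of 7 epithelial tumor markers were lower, and 4 of 6 leukocyte, 3 of 8 macrophage, 3 of 8 endothelial and 2 of 10 fibroblast markers were higher; their part was not tested. The largest change was that of Mmp10, from 37.7, 94.1 and 262 to 24.1, 46.9 and 71.2 normalized counts, a log2 fold change of -1.21 ± 0.35 SE, adjusted p = 0.0286. Adamtsl1 stood at 371, 555 and 747 after anti-LTβR, with a log2 fold change of -0.44 ± 0.14 SE, adjusted p = 0.0453. The number of members called, newly called ones included, was 3 without anti-LTβR tumor 7 and 4 without untreated tumor 1 or untreated tumor 4. The calls of Mmp19 and Adamtsl1 were each lost without any 1 of 11 and 12 tumors, that of Mmp10 without any 1 of 4 and that of Timp1 without any 1 of 3. With the skeletal muscle class as a term 4 members were called, and Mmp10, Mmp19, Timp1 and Adamtsl1 were no longer among them. The comparisons with untreated tumors share those 8 controls.

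The combination also stood apart from each agent alone. Against anti-LTβR, 41 members were tested, 19 were higher (46.3%, background 11.3% of 16932 genes) and 5 lower (12.2%, background 15.3%). Against ADU-S100, 40 were tested, 20 were higher (50.0%, background 20.2% of 16811 genes) and 7 lower (17.5%, background 26.0%). Both higher counts include Adamts17, tested only through the combination. The comparisons of the combination share the combination tumors, so their values are given side by side and not counted as separate evidence. Mmp2 gave 1.26 ± 0.20 SE, adjusted p = 0.000797 against anti-LTβR and 1.28 ± 0.21 SE, adjusted p = 0.000157 against ADU-S100. Mmp3 gave 1.65 ± 0.31 SE, adjusted p = 0.00184 and 2.13 ± 0.38 SE, adjusted p = 0.00026. Mmp12, not called against untreated tumors, was higher than after ADU-S100 alone (0.92 ± 0.29 SE, adjusted p = 0.0152), where it stood at 949, 1756 and 4064 against 1673, 3451 and 6669 in the combination. Mmp28 gave -0.53 ± 0.10 SE, adjusted p = 0.0022 against anti-LTβR and -0.93 ± 0.10 SE, adjusted p = 8.31e-06 against ADU-S100. Against each agent, 9 of 10 fibroblast and all 8 endothelial markers were also higher, and 3 of 7 epithelial tumor markers were lower against anti-LTβR and 4 of 7 against ADU-S100. All 6 leukocyte markers and 7 of 8 macrophage markers were higher against ADU-S100; the part of these markers was not tested. The 24 calls against anti-LTβR were 14 with libraries above 14000000 reads, while the calls over all genes went from 1917 higher and 2587 lower to 739 and 711. In the low skeletal muscle class limma called no member against either agent, but over all genes it called only 14 of 17615 against anti-LTβR and 1 of 17514 against ADU-S100, so nothing about the members is read from it; 18 members had an unadjusted p below 0.05 against anti-LTβR and 22 against ADU-S100.

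Whether the anti-LTβR difference depended on ADU-S100 was tested as an interaction over all 32 libraries, that is, combination minus ADU-S100 less anti-LTβR minus untreated. Of 43 members tested 20 were called, 16 positive (37.2%, background 7.33% of 17649 genes) and 4 negative (9.3%, background 11.0%). The positive count includes Mmp16, which failed the filter where the combination was not compared. The interaction was also positive for 9 of 10 fibroblast markers, with a median of 1.45 over that list on the log2 scale, for 6 of 8 endothelial markers and for 3 of 5 mural and smooth muscle markers; their part in the members' calls was not tested. Over all genes, positive calls were 39.9% of the calls in limma and 49.3% to 51.6% with edgeR and DESeq2 on the recovered reads; for combination versus anti-LTβR the higher share was 42.6% in limma and 50.5% to 54.5% with those tools.

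The largest interaction was that of Mmp3. It held 1006, 1540.0 and 3467 normalized counts in untreated, 417, 737 and 2312 in ADU-S100, 708, 1306 and 1901 in anti-LTβR and 1714, 3439 and 8518 in combination tumors, so both agents alone had lower medians than no treatment while the combination had the highest. The interaction was 2.63 ± 0.48 SE, adjusted p = 0.000645. Mmp10 had the same order of lowest median after a single agent, at 19.6, 34.2 and 122 in ADU-S100 and 18.4, 77.5 and 237 in combination tumors, with an interaction of 2.17 ± 0.57 SE, adjusted p = 0.00848; here the combination median stayed below the untreated one. Mmp9 stood at 310.3, 645 and 2014 in ADU-S100 and 553, 870.0 and 2399 in anti-LTβR tumors, and its interaction was 1.89 ± 0.50 SE, adjusted p = 0.00913. Mmp2 stood at 1982, 2777 and 4832 in ADU-S100 and 1899, 3028 and 4132 in anti-LTβR tumors, with an interaction of 1.63 ± 0.27 SE, adjusted p = 0.000361.

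Further MMPs with a positive interaction differed in how anti-LTβR alone stood. Mmp23 (105, 125 and 217 in ADU-S100 and 112, 166 and 244 in anti-LTβR tumors) gave 1.51 ± 0.26 SE, adjusted p = 0.000435, with an anti-LTβR median equal to the untreated one to 3 digits. Mmp14 (6566, 8123 and 9539 in ADU-S100 and 8131, 8913 and 10332 in anti-LTβR tumors) gave 0.55 ± 0.12 SE, adjusted p = 0.00223. For Mmp27 (6.99, 15.0 and 26.5 in ADU-S100 and 16.2, 27.2 and 32.7 in anti-LTβR tumors) the interaction was 1.09 ± 0.34 SE, adjusted p = 0.0248, and for Mmp19 (552, 634 and 742 in ADU-S100) it was 0.50 ± 0.16 SE, adjusted p = 0.0296, or 0.0508 without untreated tumor 3. In both of these, anti-LTβR alone already had a higher median than untreated tumors. Mmp16 (MT3-MMP, chr4:17852893-18119145, plus strand) was scarce, at 4.02, 7.34 and 13.4 in untreated, 1.97, 4.51 and 18.7 in ADU-S100, 1.92, 5.30 and 10.1 in anti-LTβR and 2.93, 12.5 and 21.2 in combination tumors. Its interaction of 1.56 ± 0.52 SE, adjusted p = 0.0359 was not called without any 1 of 11 tumors, namely untreated 1, 5 and 7, ADU-S100 2, 4 and 8, anti-LTβR 1 and 8 and combination 1, 4 and 7, with adjusted p up to 0.0613. Mmp16 failed the filter where the combination was not compared, so it was tested only through the group where it was highest. The interaction of Mmp16 is therefore given as a description.

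Positive interactions were also found for 6 ADAMTS proteases and 1 ADAMTS-like protein. Adamts15 (81.5, 161 and 444 in ADU-S100 and 129.6, 277 and 472 in anti-LTβR tumors) gave 1.68 ± 0.44 SE, adjusted p = 0.00804, and Adamts12 gave 1.61 ± 0.38 SE, adjusted p = 0.00404. For Adamts12, 6 of 8 ADU-S100 and 5 of 8 anti-LTβR tumors lay below all untreated tumors. Adamts5 (104, 198 and 309 in ADU-S100 and 182, 283 and 368 in anti-LTβR tumors) gave 0.91 ± 0.30 SE, adjusted p = 0.0315, a call lost without any 1 of ADU-S100 tumors 2 to 4, anti-LTβR tumor 2 or combination tumor 5. Adamts2 (1972, 2238 and 3103 in ADU-S100 and 1953, 2269 and 3065 in anti-LTβR tumors) gave 0.79 ± 0.16 SE, adjusted p = 0.00116. The groups other than the combination overlapped for these genes. Adamts9 (59.8, 70.2 and 84.8 in ADU-S100 and 66.8, 79.6 and 101 in anti-LTβR tumors) gave 0.70 ± 0.13 SE, adjusted p = 0.000673, Adamts10 (361, 400.1 and 574 in ADU-S100 and 397, 452 and 601 in anti-LTβR tumors) gave 0.62 ± 0.16 SE, adjusted p = 0.00761, and Adamtsl2 (10.7, 18.9 and 55.9 in ADU-S100 and 20.3, 25.7 and 30.2 in anti-LTβR tumors) gave 1.16 ± 0.36 SE, adjusted p = 0.0234.

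The 4 negative interactions were those of Timp3 (-0.53 ± 0.17 SE, adjusted p = 0.025), Mmp28 (-0.53 ± 0.13 SE, adjusted p = 0.0063), Adamtsl3 (-0.71 ± 0.22 SE, adjusted p = 0.0216) and Adamtsl4 (-0.50 ± 0.09 SE, adjusted p = 0.000724). Adamtsl3 held 1329, 1817 and 2399.8 normalized counts in ADU-S100 and 1257, 1473 and 1787 in anti-LTβR tumors, and Adamtsl4 held 1127, 1304 and 1566 in ADU-S100 and 1129, 1237 and 1652 in anti-LTβR tumors. Adamtsl4 had higher medians after each agent alone than in untreated tumors and its lowest median in the combination. Timp1, which fell after anti-LTβR and further in the combination, had an interaction of -0.06 ± 0.18 SE, adjusted p = 0.856 and was not called.

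**Figure D5:**
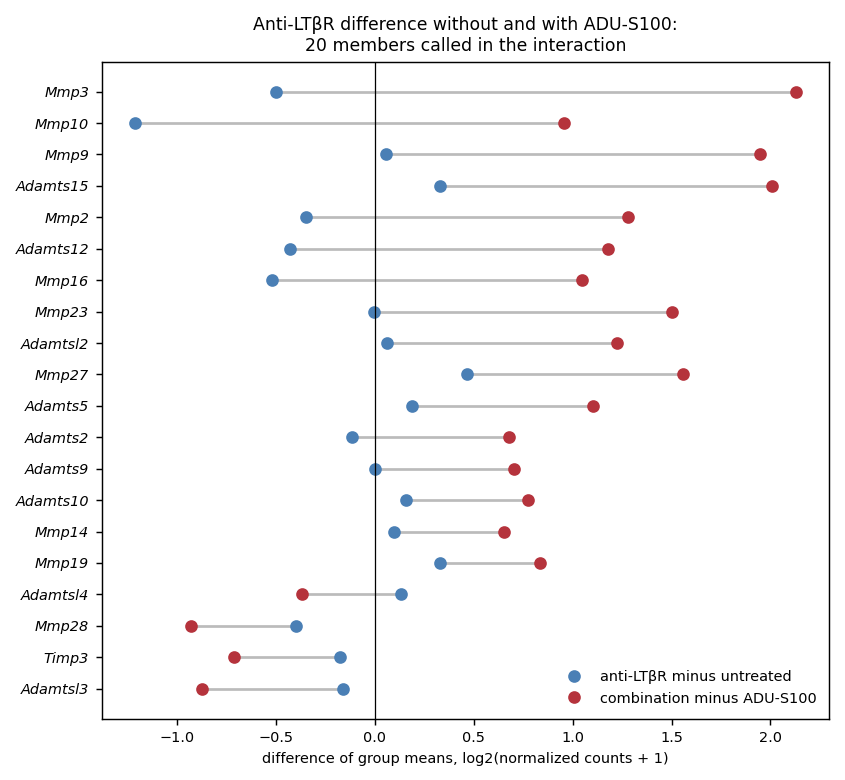
Difference of group means of log2(normalized counts + 1) for the 20 members called in the interaction: blue, anti-LTβR minus untreated; red, combination minus ADU-S100 (8 tumors per group). The distance between the points is the interaction, from 2.63 for Mmp3 to -0.71 for Adamtsl3.

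Recomputed within classes of skeletal muscle content, chosen after the data were seen, all 28 members called against untreated tumors kept their direction. In the high class, with 5 combination and 3 untreated tumors, 14 of the 28 were still called, while the calls over all genes went from 3310 higher and 3995 lower to 1032 and 1047; Mmp2, Mmp3, Mmp8, Mmp15, Mmp24, Mmp25, Mmp27, Adamts5, Adamts9, Adamts12, Adamts17, Adamtsl2, Adamtsl3 and Adamtsl4 were not. In the low class, with 3 and 5 tumors, 23 were still called, with 2061 genes higher and 1550 lower over all genes; Adamts1, Adamtsl4, Mmp17, Mmp24 and Mmp25 were not. With the class as a term in the fit of all 16 tumors, all 28 were called. For the interaction, 16 of the 20 members were still called with the class as a term; Adamts5 (adjusted p = 0.0597), Mmp16 (0.0735), Mmp27 (0.0519) and Timp3 (0.0605) were not. With libraries above 14000000 reads, Adamtsl2 (0.109), Adamtsl3 (0.0618), Mmp19 (0.108) and Mmp28 (0.0516) were not called. All 20 kept their sign in these fits. Within the classes limma called 16 members in the high class and 0 in the low class, losing Adamtsl2, Mmp10, Mmp16 and Timp3 in the high class. Over all genes the interaction calls were 1111 positive and 1591 negative of 18143 in the high class. In the low class they were 0 of 18302, so nothing about the members is read from it. There 2 ADU-S100 and 2 anti-LTβR tumors were left and 6 members had an unadjusted p below 0.05 in limma. Against untreated tumors, Mmp2 gave 0.62 (adjusted p = 0.0752) in the high and 1.36 (adjusted p = 0.00365) in the low class. Mmp9 gave 1.63 (adjusted p = 0.0251) in the high and 1.85 (adjusted p = 0.00274) in the low class, and Timp3 gave -0.59 (adjusted p = 0.0291) and -0.73 (adjusted p = 0.0116).

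Other genes of matrix breakdown were taken from lists of regulators, proteases and substrates. Of 19 tested activators and regulators of MMPs, 6 were higher and 6 lower in combination than in untreated tumors, 31.6% each against the background of 19.6% and 23.6% of all genes, with a median log2 fold change of 0.10. A2m, which traps proteases of all classes, rose by 1.98 ± 0.25 (SE) and Reck, a membrane inhibitor of MMPs, by 1.08 ± 0.19 on the log2 scale. The urokinase receptor Plaur fell, at -0.63 ± 0.08, as did the MMP9 docking receptor Cd44, at -0.50 ± 0.07. Plau, the gene of urokinase, at 0.28 ± 0.14, was not called.

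Of 22 tested other matrix proteases and their enhancers, 14 were higher (63.6%) and 3 lower (13.6%) against the same background, with a median of 0.50. Fap, a serine protease of activated fibroblasts, gave 1.27 ± 0.18, Ctsk, a collagen-degrading cathepsin, gave 1.09 ± 0.23, and Adam12 gave 1.13 ± 0.24. The ADAMTS-like relative Thsd4 fell, at -1.76 ± 0.17. Of 21 tested matrix substrates, 13 were higher (61.9%) and 2 lower (9.52%), with a median of 0.74. The proteoglycans Dcn (1.52 ± 0.21), Lum (1.64 ± 0.25) and Fmod (1.78 ± 0.25) and elastin (Eln, 1.31 ± 0.19) rose, while Spp1 (osteopontin, -0.82 ± 0.17) and Lamb1 (-0.30 ± 0.08) fell. Col1a1, Dcn, Lum and Fap are also on the fibroblast marker list, whose sums did not overlap between the groups. After anti-LTβR alone, where the background was 7.21% higher and 8.10% lower, 2 of 18 regulators were higher and 2 lower (11.1% each). Of 21 proteases 4 were higher (19.0%) and 2 lower (9.52%), and of 21 substrates 2 were higher (9.52%) and 1 lower (4.76%).

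The other members were not called in combination versus untreated tumors or were too low to be tested. Adamts6 and Adamtsl5 stood at 302 to 555 and 221 to 464 normalized counts over the 32 tumors, and were called in no comparison. Mmp11 (stromelysin 3), an enzyme of the tumor stroma, stood at 302 to 1007 and was not called either. Adamts16 and Adamts3 stayed at or below 25.6 in every tumor. Mmp1a, Mmp1b, Adamts13, Adamts18, Adamts19, Adamts8 and Adamts20 failed the filter in combination versus untreated tumors. The first 5 failed it in every comparison, with highest values of 5.77, 7.69, 3.84, 12.7 and 3.90 normalized counts. Adamts8 ranged over 2.92 to 19.7 and Adamts20 over 0 to 85.4 normalized counts.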

How the data were processed

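Per the labels and the methods, the authors trimmed reads with Cutadapt 1.9, aligned them with HISAT2 and assembled and quantified transcripts with StringTie, with STAR and Partek also named and mm39 as the build. The table of 32 libraries is named for Partek; which aligner and counter made each table is not given in the sources used here. The deposited values are normalized counts (unit signal): gene counts divided by library size factors, 27525 genes in 32 libraries. A larger deposited table of 52 libraries has the same kind of signal, and its steps gave back whole reads (tolerance 0.1), which were used for edgeR and DESeq2. A deposited table of gene set results was not used. All per-sample columns were assigned, and 20 libraries of another experiment entered no comparison.

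Values were tested as log2(value + 1) with limma 3.58.1 (trend; R 4.3.3), pairwise between groups of 8 separate tumors and over 32 libraries for the interaction. Genes passed edgeR's filter (minimum count 10) and were called at an adjusted p below 0.05 by Benjamini-Hochberg. The filter, scaling, tool (edgeR 4.0.16, DESeq2 1.42.0), left-out libraries, depth and skeletal muscle content were varied. On simulated data for combination versus untreated, limma recovered 176 of 196 genes changed by 1.5 on the log2 scale among 15490, with 10 false calls. The simulation changed few genes, all by the same amount, and held no classes of tissue content. It therefore does not measure how smaller changes are recovered in these tumors. Members near the filter rest on few reads, and their counting error is part of the spread between tumors.

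The members and gene lists were chosen with earlier results of these data known. Levels and fits are given in full for members called in combination versus untreated tumors (the 25 smallest adjusted p-values) or in the interaction, and for the TIMPs, Mmp2, Mmp9 and Mmp14. Members called elsewhere are given in fewer words, the others by range. Ensembl IDs were matched to GENCODE M21 (GRCm38) for positions, and symbols to RefSeq promoter windows. Some items of the line's genotype and of the gene lists are not reported here.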

Additional observations from a re-analysis of the deposited data

Results flagged for a closer look

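Of 128 groups of 8 tumors (32 members in 4 treatments), 14 held 1 tumor set far apart from the other 7 by Dixon's criterion, which flags about 1 group in 20 by chance. In the combination group these were tumor 5 for Mmp19 (1784 normalized counts) and Mmp23 (742), tumor 6 for Mmp15 (240.3) and tumor 8 for Adamtsl1 (632). Combination tumor 5 was thus the highest for both Mmp19 and Mmp23, and without it the log2 fold changes against untreated tumors were 0.72 (adjusted p = 0.000214) and 1.09 (adjusted p = 7.14e-05). In the untreated group they were tumor 4 for Adamts9 (62.2), tumor 6 for Mmp23 (105) and tumor 7 for Adamts17 (18.2). In the ADU-S100 group they were tumor 1 for Mmp10 (122) and Mmp16 (18.7), tumor 3 for Timp4 (46.9) and tumor 6 for Adamts15 (444) and Adamts17 (28.5). In the anti-LTβR group they were tumor 1 for Mmp25 (203) and tumor 3 for Mmp19 (1020), both normalized counts.

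The limma interaction term of ADU-S100 and anti-LTβR was called for 20 members. Of these, 16 were still called with the skeletal muscle class as a term and 16 with libraries above 14000000 reads. In the low muscle class none was called, but there the term was called for 0 of 18302 genes. The term was also positive for 9 of 10 fibroblast markers, whose part was not tested. Among the 20, Mmp16 was tested only through the combination. In log2 units the interaction was 2.63 for Mmp3, 2.17 for Mmp10, 1.89 for Mmp9, 1.63 for Mmp2, 1.56 for Mmp16, 1.51 for Mmp23, 1.09 for Mmp27, 0.55 for Mmp14 and 0.50 for Mmp19. It was 1.68 for Adamts15, 1.61 for Adamts12, 0.91 for Adamts5, 0.79 for Adamts2, 0.70 for Adamts9, 0.62 for Adamts10 and 1.16 for Adamtsl2. It was negative for Timp3 (-0.53), Mmp28 (-0.53), Adamtsl3 (-0.71) and Adamtsl4 (-0.50).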

How the results depend on the processing

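Members called in combination versus untreated tumors numbered 28 and ranged from 26 to 30 over the planned tools, scalings and filters, and the interaction, with 20, from 18 to 21 before any fold threshold. Counts moved by over 1.5 times with the 2-fold threshold (8 for combination versus untreated, 1 for anti-LTβR, 11 for combination versus ADU-S100, 7 for combination versus anti-LTβR and 10 for the interaction). With settings added after seeing the data there were, within the high muscle class, 15 members for combination versus untreated and 0 for anti-LTβR (7 at an unadjusted p below 0.05), and within the low class 0 for the interaction, combination versus anti-LTβR, combination versus ADU-S100 and anti-LTβR, where 2 anti-LTβR and 2 ADU-S100 tumors were left and limma gave 6, 18, 22 and 11 members at an unadjusted p below 0.05. Over all genes limma called 58 for anti-LTβR in the high class. In the low class it called 0, 14, 1 and 1 genes in the same order, so these counts of 0 members are not read as a result about the members. With libraries over 14000000 reads, 14 members were called for combination versus anti-LTβR and 4 for anti-LTβR, which also had 4 with the muscle class as a term or the marker level as a covariate. Without single libraries the counts were 26 to 29 for combination versus untreated, 3 to 8 for anti-LTβR, 0 to 0 for ADU-S100, 20 to 24 and 27 to 29 for the combination against anti-LTβR and ADU-S100, and 18 to 22 for the interaction. Timp4, at 0.03 in combination versus untreated, turned to -0.21, -0.35 and -0.43 with the class term, the covariate and the low class, and ranged from -0.18 to 0.28 without single libraries; Timp2 turned to 0.016 in the low class. Replicate numbers did not pair the tumors (mean correlations of same-numbered tumors from -0.087 for anti-LTβR versus untreated to 0.19 for ADU-S100 versus untreated, with 2 to 5 of 8 pairs above 0.1 and negative pairs in each of the 5 comparisons); a fit with replicate block called 27 members for combination versus untreated and 20 in the interaction. Among single members, Adamts1 against untreated tumors was also not called without the filter, with all 4 groups in 1 fit or with the block, nor Adamts12 with all groups in 1 fit. After anti-LTβR, Mmp19 was not called with edgeR's TMM scaling or without the filter, Adamtsl1 without the filter and Mmp10 with the block; the interaction of Mmp16 was not called with library totals or without the filter. The cause was not tested in any of these.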

Other observations

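A further 20 libraries of another experiment were in the larger table, and they entered no comparison. Only the 5 of D1 to D5 carry a treatment label used here, combination. Over these 20 libraries Mmp2 stood at 1583, 3379 and 11326 normalized counts of that table (lowest, median and highest), Mmp9 at 386, 1022 and 9512, Mmp14 at 4465, 6476 and 10463 and Mmp3 at 347, 1771 and 8515. The inhibitor Timp1 stood at 2944, 8655 and 63340.3 and Timp3 at 4109.9, 17796 and 46640.2, and Mmp28 at 128, 419 and 864. Adamts15 ranged over 46.1, 246 and 1451. In D1 to D5 alone Mmp2 stood at 2757, 9676 and 10867, Mmp3 at 997, 5817 and 8515, Mmp28 at 132, 257 and 429 and Timp3 at 4109.9, 10666 and 19229.9. Library D3 stood apart from the other 4, with 8716257 recovered reads against 18028313 to 18789130 and 1 read worth 3.78 normalized counts against 0.817 to 0.959. It held the highest Timp1 and the lowest Mmp3, Mmp28 and Timp3 of the 5. The Timp1 level of D1 to D5, at 2944, 13599.8 and 63340.3, had a median above that of the 8 combination tumors of the main experiment, and also above that of its untreated tumors. Without D3, chosen after the data were seen, Timp1 stood at 2944, 12712 and 15454, Timp3 at 7318, 13067 and 19229.9, Mmp28 at 155, 312 and 429, Mmp3 at 3077, 6276 and 8515 and Mmp2 at 2757, 6887 and 10867. On the same scale the 8 untreated tumors held 3073, 3510.3 and 4813 for Mmp2 and 6223, 7739.9 and 14181 for Timp1, and the 8 combination tumors 4158, 7321 and 12420.0 and 4070.0, 4808 and 5832.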
